A study of Mus musculus with 18 samples.

Results

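The cytosolic ribosomal protein genes were followed through 6 groups of mouse livers. Members were all rows of the count table whose symbol is Rpl or Rps with a number and, at most, a paralog suffix, together with Rplp0, Rplp1, Rplp2 and Rpsa, and without symbols marked -ps. They came to 89 of 52636 genes. Of these, 77 were genes of subunit proteins (31 of the small and 46 of the large subunit) and 12 were copies or paralogs named after another member, such as Rps27l or Rps3a3. In the GENCODE M21 annotation 84 were protein coding and 5 were pseudogenes. A filter on low counts kept 84 of the 89 members. The 5 that were not tested were Rpl24, Rpl3l, Rpl39l, Rpl10l and Rps12l1, and the last 3 of them were at 0 in every library. The naming rule leaves out genes such as Fau, whose product is cut into a ribosomal protein and a ubiquitin-like part, and Rack1, a scaffold protein of the small subunit. Fau and Rack1 are described separately.

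Ribosomal proteins and ribosomal RNA form the small subunit, which reads the mRNA, and the large subunit, which joins the amino acids. Most of the proteins are needed in equal numbers, and excess free proteins are degraded. Their mRNAs are among the most abundant in the cell. They begin with a run of pyrimidines through which the kinase complex mTORC1 controls their translation, so their mRNA level and their protein output can differ. Free Rpl5, Rpl11 and Rpl23 bind MDM2, the ubiquitin ligase of the tumour suppressor p53. In the liver, ribosome production rises with feeding and with regrowth of the tissue.

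Total RNA of livers taken at ZT8 (8 hours into the light phase) was sequenced in 18 libraries, with 3 biological replicates in each group. The H-WT and H-KO mice carried Hnf4atm1.1Gonz, an allele for conditional deletion of the hepatocyte nuclear receptor gene Hnf4a. The BH-WT, BH-KO, BH-HF-WT and BH-HF-KO mice carried that allele and Arntltm1Weit, its counterpart for the clock gene Arntl (Bmal1). All groups, the WT groups included, have in their strain label Albtm1(cre/ERT2)Mtz, the gene of a Cre recombinase that tamoxifen switches on, placed at albumin, so deletion is directed to hepatocytes and other liver cells keep their alleles. WT and KO mice of a setting have the same strain label, and the sources used here do not say how the WT mice differ. All received tamoxifen (10 mg/mL in corn oil) on 5 days at 8 weeks of age. The H and BH mice were 10 weeks old. The BH-HF mice were 45 weeks old and had eaten a high-fat diet for 35 weeks from 10 weeks of age, so diet and age cannot be told apart in them.

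The libraries held between 6846471 and 9816124 counts. A gene without counts allowed up to 3 counts, or 0.264 to 0.479 CPM (counts scaled to library size after TMM scaling, the unit used for all levels below). Neither Hnf4a nor Arntl was lower in a KO group at an adjusted p under 0.05 (edgeR). Hnf4a was at 580 to 887 CPM in H-WT and 555 to 657 CPM in H-KO (log2 fold change -0.35, adjusted p = 0.21, edgeR). It was at 770 to 888 CPM in BH-WT and 494 to 866 CPM in BH-KO (log2 -0.40, adjusted p = 0.16, edgeR). In BH-HF-WT it was at 767 to 839 CPM, and in BH-HF-KO at 818 to 977 CPM. Arntl was higher in the libraries labelled BH-KO (17.4 CPM or more in each) than in BH-WT (0.420, 0.734 and 0.798 CPM), against the direction of the label. In the BH-HF groups it was at 0.884 to 2.53 CPM. These counts are sums over whole genes, in which a conditional deletion removes part. Group names below are the labels, and every direction given for BH-KO is that of the libraries labelled so. A pair of libraries stood apart from their groups. BH-KO replicate 1 had a TMM factor of 0.880, against 1.25 and 1.30 in the other two. H-WT replicate 3 had 1082 CPM of Xist, which coats the silenced X chromosome in females, against at most 3.89 CPM in every other library.

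Ribosomal protein genes took a larger part of the counts in the H-KO livers and in 2 of the 3 BH-KO livers than in their controls. The summed share of the 89 genes was 0.912%, 0.837% and 1.12% of all counts in H-WT and 1.46%, 1.43% and 1.56% in H-KO. The 2 groups did not overlap. In BH-WT the share was 1.05%, 1.11% and 1.01%, and in BH-KO it was 1.08%, 2.12% and 1.76%. Replicate 1 of BH-KO thus lay within the range of BH-WT, while the other 2 lay above it. After high-fat diet the shares were 0.895%, 0.890% and 0.850% in BH-HF-WT and 0.924%, 0.941% and 0.957% in BH-HF-KO, which did not overlap but differed little.

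The gap between H-WT and H-KO depended on the scaling. Albumin mRNA took 7.33% ± 0.49 of all counts in H-WT and 1.54% ± 0.17 in H-KO (SD, n = 3), and mitochondrially encoded genes took 7.85% ± 0.60 and 4.72% ± 0.39. TMM scaling, which centres the bulk of genes, gave factors of 0.949 to 0.950 in H-WT and 1.32 to 1.38 in H-KO. Relative to the TMM-scaled library size, the summed share was 0.960%, 0.881% and 1.18% in H-WT and 1.11%, 1.06% and 1.13% in H-KO. The 2 groups then overlapped, with the highest value in H-WT replicate 3. On the same scale BH-WT had 1.21%, 1.17% and 1.10%, and BH-KO had 1.23%, 1.69% and 1.35%, so that on this scale every BH-KO library lay above every BH-WT library, with replicate 1 just above them. BH-HF-WT had 0.997%, 1.05% and 0.987%, and BH-HF-KO had 1.03%, 1.13% and 1.06%. In bulk RNA, less RNA per cell and fewer cells of a type cannot be told apart.

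**Figure D1:**
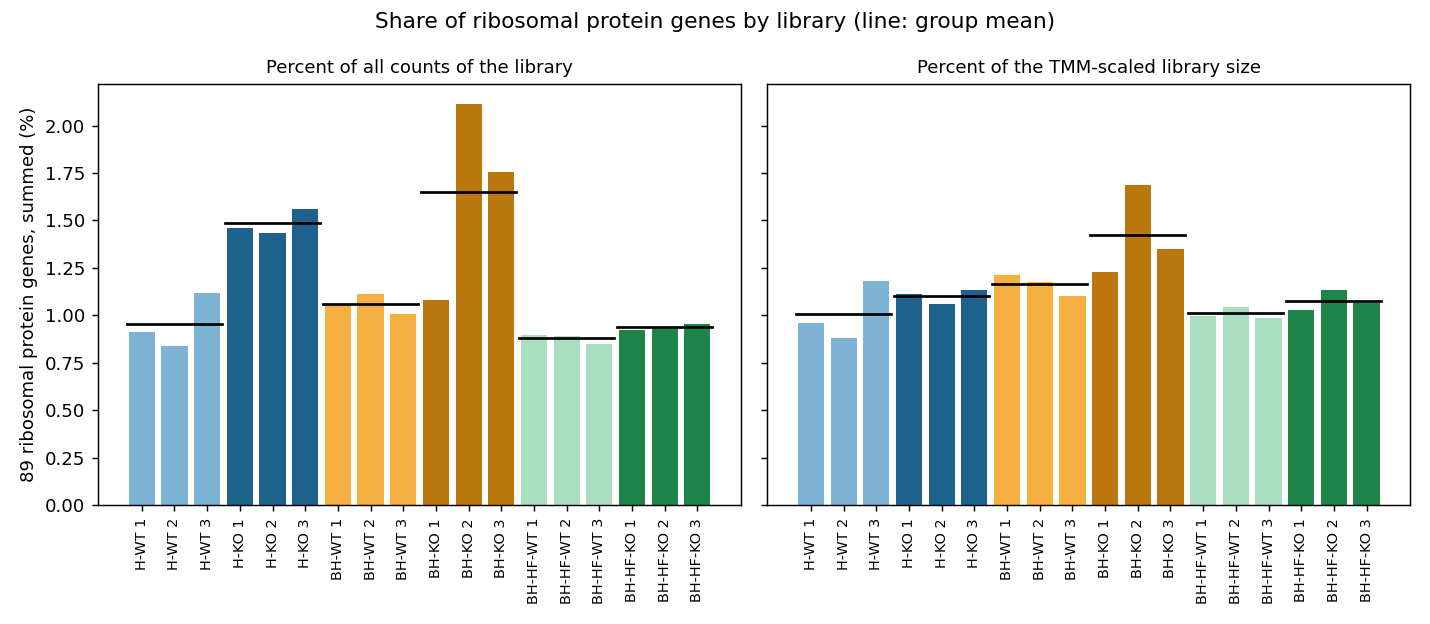
Summed counts of the 89 ribosomal protein genes in each of 18 libraries (bars) with the group mean (line), as percent of all counts (left) and of the TMM-scaled library size (right). The H-KO libraries stand above H-WT on the left (1.43% to 1.56% against 0.837% to 1.12%) and overlap with it on the right, while BH-KO replicate 2 is highest on both scales (2.12% and 1.69%).

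In some libraries most of the genes moved together. Among the 76 subunit genes tested, H-WT replicate 3 was the highest of its group for 72 genes, whereas it was highest for 38.2% of all genes tested. BH-KO replicate 2 was the highest of its group for 73 of the 76 (31.4% of all genes), and H-WT replicate 2 was the lowest for 65 (30.8%). Other libraries showed no such common shift. H-KO replicate 1 was highest for 23 and lowest for 27 (37.1% and 33.8% of all genes). BH-WT replicate 2 was highest for 22 and lowest for 18 (37.5% and 35.6%). Small and large subunit genes kept a nearly fixed ratio. Summed small subunit counts divided by summed large subunit counts lay between 0.659 and 0.736 in all 18 libraries, with the lowest value in BH-KO replicate 1. The spread within groups was small for most members. The median of the pooled SD of log2 levels over the 84 tested members was 0.18, against 0.27 over all genes tested. All genes tested were not matched to the members for level, so these medians do not separate membership from abundance. The SD of single members ran from 0.10 to 1.41, and the largest values belonged to copies (Rps3a3, Rps3a2, Rps4l, Rpl36al) and to Rps3a1.

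**Figure D2:**
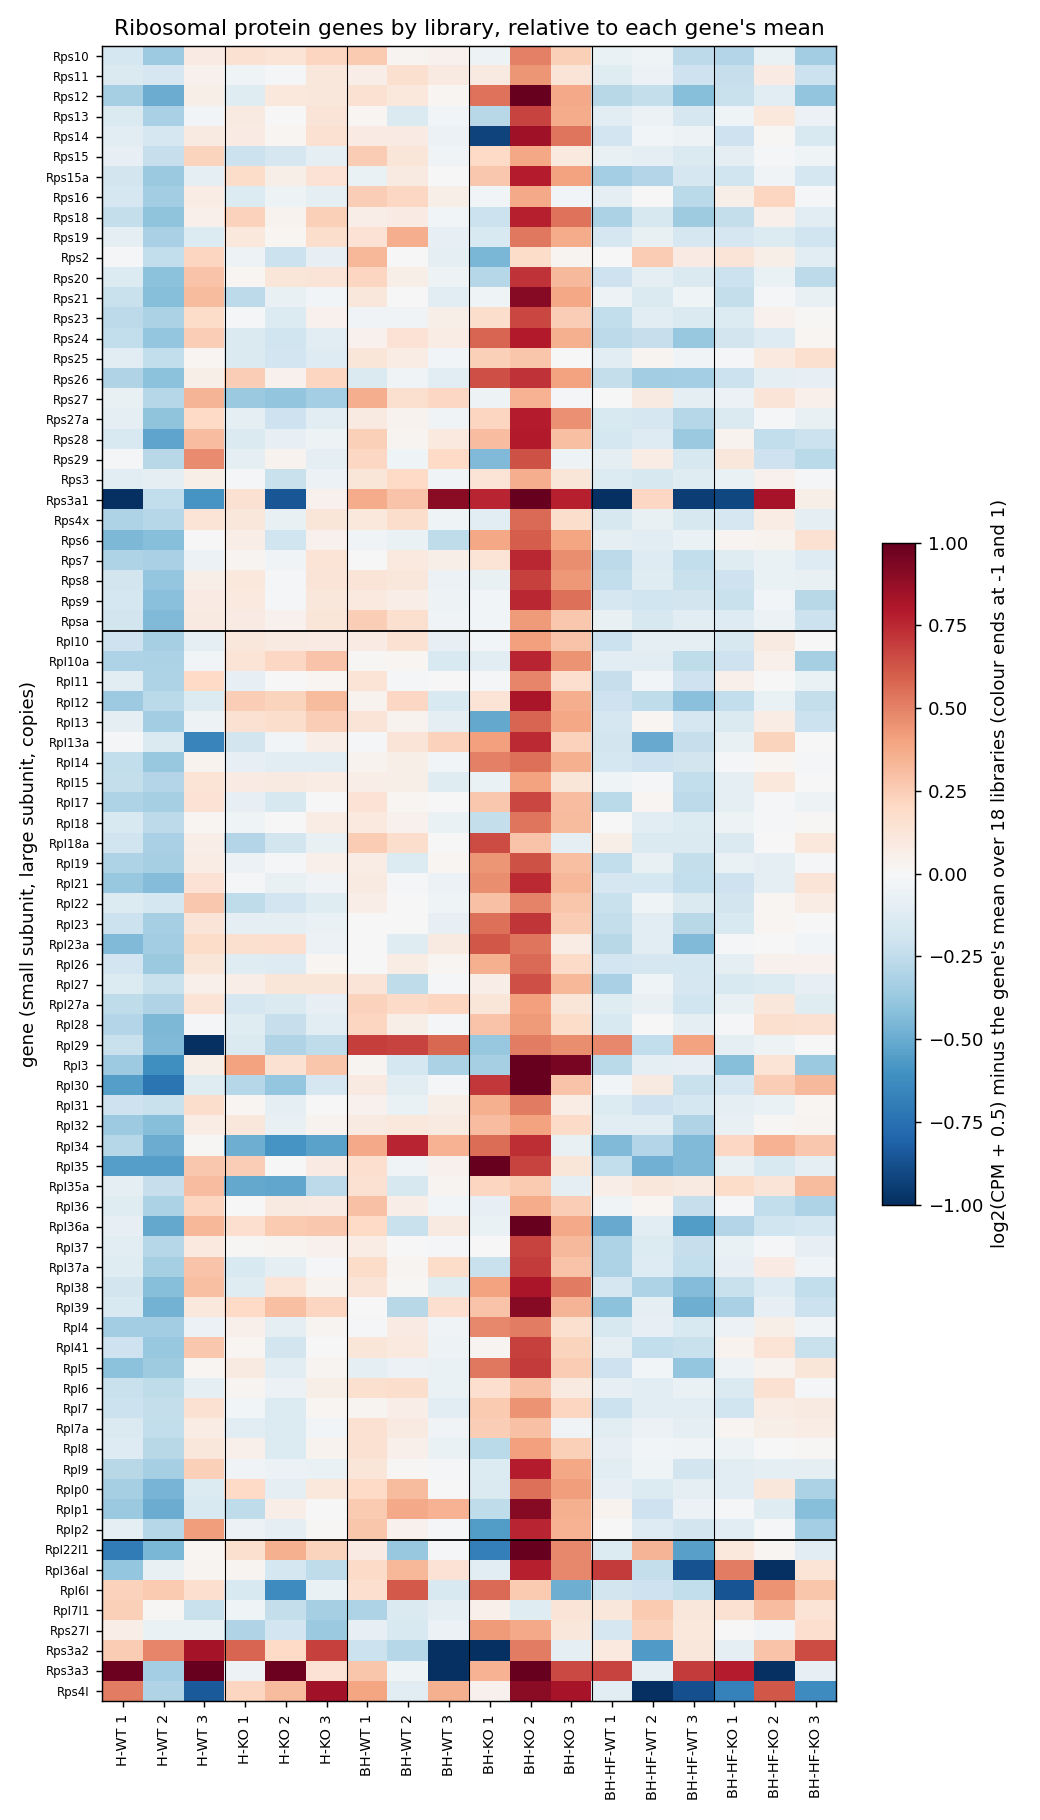
Levels of 82 of the 84 tested ribosomal protein genes (rows, small subunit at the top, large subunit in the middle, copies at the bottom) in 18 libraries (columns), as log2(CPM + 0.5) minus the gene's mean, red above and blue below. BH-KO replicate 2 is red through nearly all rows (highest of its group for 73 of 76 subunit genes), and the rows of Rps3a1, Rps3a2, Rps3a3 and Rps4l vary most.

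For 69 tested subunit genes with annotated transcripts under 1500 bases, levels were compared per length. The mean over 18 libraries ran from 7.63 CPM per kb for Rpl13a to 453 CPM per kb for Rpl10, a late-joining protein of the large subunit, with a median of 162 CPM per kb. The next highest on this scale were Rps18 (359 CPM per kb), Rps2 (348 CPM per kb) and Rps15 (342 CPM per kb), all proteins of the small subunit. The 89 members lie on 19 chromosomes, with 15 of them on chromosome 7.

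The libraries labelled H-KO and H-WT were compared first. Of the 84 members tested, 3 rose and 2 fell in H-KO against H-WT (edgeR quasi-likelihood test, adjusted p under 0.05 over all 13958 genes). These were 3.57% and 2.38% of the members, beside 15.8% and 19.1% of all genes tested. The counts at an unadjusted p under 0.05 were 9 and 3, with 21.2% and 23.1% of all genes. The median log2 fold change was 0.11 over the members and 0.00 over all genes, with 60 of 84 members above 0. The groups did not overlap for 15 members above and 4 below, against 26% and 25.9% of all genes.

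The 3 that rose were Rpl12, at the base of the large subunit stalk, Rps26, at the mRNA exit of the small subunit, and Rps15a, a small subunit protein. Rpl12 was at 120, 128 and 140 CPM in H-WT and 183, 179 and 192 CPM in H-KO, a log2 fold change of 0.52 ± 0.15 (SE, adjusted p = 0.014, edgeR). Rps26 was at 113, 104 and 145 CPM in H-WT and 165, 143 and 161 CPM in H-KO (log2 0.38 ± 0.12, adjusted p = 0.026, edgeR). The H-WT and H-KO ranges were apart for Rpl12, while for Rps26 H-WT replicate 3 lay above the lowest H-KO library. Rps15a was at 77.5, 68.0 and 82.6 CPM in H-WT and 100, 91.7 and 97.5 CPM in H-KO (log2 0.34 ± 0.12, adjusted p = 0.038, edgeR), and its ranges were apart. All 3 also rose in BH-KO. Left-out libraries ended these calls: Rpl12 did not pass without H-WT replicate 1, Rps26 without H-WT replicate 1 or 2 or H-KO replicate 1 or 3, and Rps15a passed only with the full set or without H-WT replicate 3.

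The 2 that fell were Rpl35a, a large subunit protein mutated in Diamond-Blackfan anaemia, and Rps27, a zinc finger protein of the small subunit. Rpl35a was at 92.6, 84.0 and 123 CPM in H-WT and 69.2, 68.8 and 82.3 CPM in H-KO (log2 -0.44 ± 0.14, adjusted p = 0.022, edgeR). Rps27 was at 94.2, 81.6 and 126 CPM in H-WT and 76.7, 75.6 and 78.4 CPM in H-KO (log2 -0.39 ± 0.14, adjusted p = 0.045, edgeR). H-WT replicate 3 was the highest library for both, and without it neither passed (log2 -0.27 and -0.20). Rpl35a was lost also without H-KO replicate 1 or 2, and Rps27 without any library of the comparison but H-WT replicate 2. Both falls depended on the scaling. Relative to plain library totals the changes were 0.07 for Rpl35a and 0.12 for Rps27, of the opposite sign.

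The counts in this comparison followed the scaling and single libraries. With plain library totals, 61 members rose and 0 fell, against 42.9% and 9.27% of all genes, and the median was 0.62 over the members and 0.50 over all genes. With upper-quartile factors 19 rose and 0 fell (23.9% and 14.8% of all genes), and with libraries scaled to the members themselves 1 rose and 3 fell (8.83% and 20.2% of all genes). Without H-WT replicate 3, 11 members rose and 1 fell (12% and 15.8% of all genes). Without H-WT replicate 1, 0 rose and 1 fell (12.7% and 17%), and without H-WT replicate 2, 1 rose and 2 fell (11.8% and 16.3%). Without H-KO replicate 1, 1 rose and 0 fell (11.2% and 15.2%), and without H-KO replicate 2, 2 rose and 0 fell (11.8% and 15%). Without H-KO replicate 3, 1 rose and 1 fell (12% and 15.2%).

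In the BH line Arntl carries a conditional allele as well. Of 84 members tested, 24 rose, 0 fell and 60 did not pass in the libraries labelled BH-KO against BH-WT (edgeR, adjusted p under 0.05), with 14.4% of all genes higher and 14.2% lower. At an unadjusted p under 0.05 the counts were 34 and 0, with 20.9% and 20.3% of all genes. Without BH-KO replicate 2 the count of risers was 7. DESeq2 and limma-voom gave 27 and 21 higher, and 0 lower each. The median log2 fold change was 0.34 over the members and 0.03 over all genes, and 77 of 84 members were above 0. The risers were 15 of 45 large subunit genes, 8 of 31 small subunit genes and 1 of 8 copies. The groups did not overlap for 27 members above and 1 below, against 18.1% and 16.8% of all genes.

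The largest rise was that of Rpl3, a protein near the peptidyl transferase centre. It was at 192, 167 and 152 CPM in BH-WT and 150, 387 and 364 CPM in BH-KO (log2 0.82 ± 0.27, adjusted p = 0.034, edgeR). Replicate 1 lay below every BH-WT library, and the call was lost without any BH-WT library and without BH-KO replicate 2 or 3.

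Other risers were high in all 3 BH-KO libraries. Rpl30, a large subunit protein that also binds its own transcript, was at 82.9, 72.3 and 76.9 CPM in BH-WT and 127, 159 and 94.6 CPM in BH-KO (log2 0.71 ± 0.19, adjusted p = 0.011, edgeR). Rps26 was at 125, 136 and 129 CPM in BH-WT and 217, 229 and 183 CPM in BH-KO (log2 0.69 ± 0.12, adjusted p = 0.00095, edgeR). It had the smallest p of the members in this comparison, and its call was kept under every alternative that was run. Rps12, a small subunit protein, was at 136, 131 and 124 CPM in BH-WT and 178, 271 and 159 CPM in BH-KO (log2 0.64 ± 0.18, adjusted p = 0.015, edgeR).

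Rps6, the small subunit protein phosphorylated by S6 kinase, was at 120, 117 and 103 CPM in BH-WT and 161, 187 and 161 CPM in BH-KO (log2 0.58 ± 0.12, adjusted p = 0.0032, edgeR). Rpl5, which carries the small ribosomal RNA of the large subunit and binds MDM2, was at 128, 131 and 130 CPM and at 196, 222 and 163 CPM (log2 0.58 ± 0.14, adjusted p = 0.0060, edgeR). Rpl38, known for its part in translating Hox mRNAs, was at 62.7, 58.0 and 52.8 CPM and at 76.1, 101 and 82.7 CPM (log2 0.58 ± 0.16, adjusted p = 0.012, edgeR). The ranges of all 3 genes were apart. Rps6 and Rpl5 passed whichever single library was left out, while Rpl38 and Rps12 were lost without BH-WT replicate 3 or BH-KO replicate 2, and Rpl30 without BH-KO replicate 2. Rpl35, the last of the leading 8, was at 35.3, 30.5 and 32.2 CPM in BH-WT and 64.2, 50.4 and 34.1 CPM in BH-KO (log2 0.60 ± 0.21, adjusted p = 0.047, edgeR), which overlapped, and it passed only with all libraries or without BH-KO replicate 3. The other 16 risers had log2 fold changes of at most 0.57 (Rpl39).

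**Figure D3:**
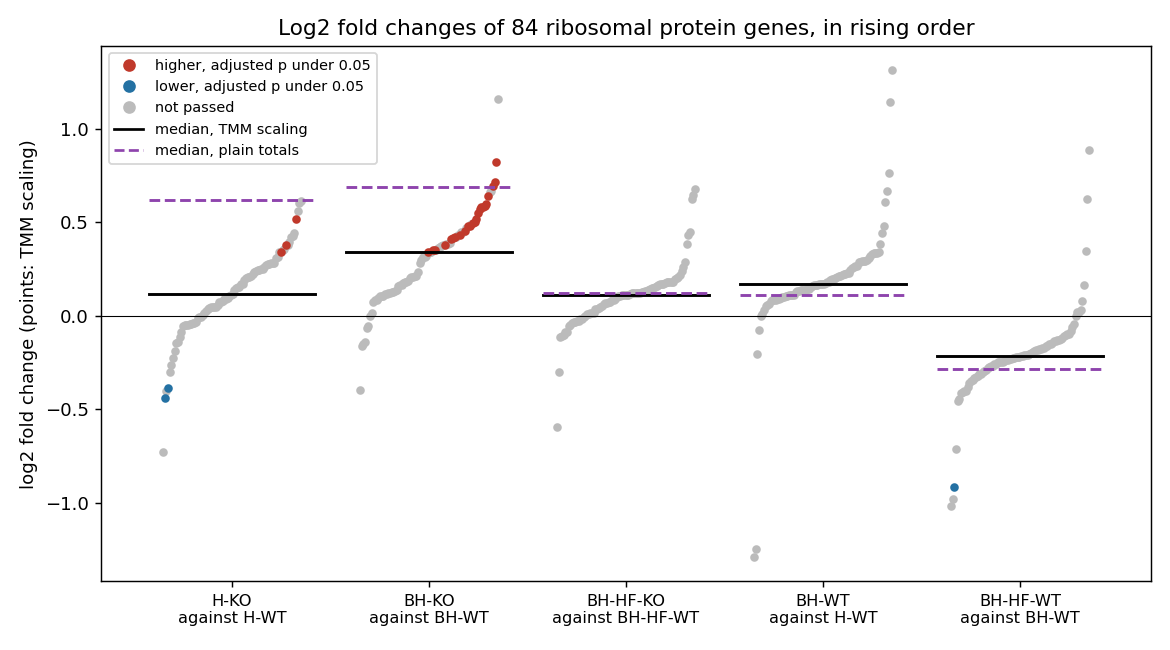
Log2 fold changes (TMM scaling) of the 84 tested ribosomal protein genes in 5 comparisons, each in rising order, with members past an adjusted p of 0.05 in colour and medians as lines. The median is 0.11 in H-KO and 0.34 in BH-KO with TMM scaling, and 0.62 and 0.69 with plain library totals.

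Library choice moved this count. It was 40 without BH-KO replicate 1 (19.5% of all genes) and 7 without BH-KO replicate 2 (8.41%), the library with the highest share, with medians of 0.41 and 0.15. Without BH-KO replicate 3 it was 19 (8.72%). Without BH-WT replicate 1, 2 or 3 the count was 14, 12 or 10, with 10.1%, 9.88% and 9.94% of all genes. With plain library totals 58 members rose and 0 fell (31.1% and 8.63% of all genes), with upper-quartile factors 32 rose and 0 fell (18.3% and 12.3%), and with libraries scaled to the members 2 rose and 3 fell (4.71% and 19.9% of all genes). Fitted to the BH-WT and BH-KO libraries alone, 2 members rose, with 4.23% of all genes.

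Markers of liver cell types were read beside all genes. Of all genes 15.8% were higher and 19.1% lower in H-KO, and 14.4% and 14.2% in BH-KO. Of the cholangiocyte list 3 of 5 tested genes rose in H-KO and 2 of 5 in BH-KO, and their summed level was 33.1 to 58.7 CPM in H-WT, 110 to 171 CPM in H-KO, 39.9 to 77.2 CPM in BH-WT and 103 to 343 CPM in BH-KO. Of the hepatocyte list 5 of 8 fell in H-KO, while in BH-KO 2 fell and 1 rose, and its summed level was 22285 to 25042 CPM in H-KO against 94497 to 106861 CPM in H-WT. This sum was 28104 to 72256 CPM in BH-KO against 95445 to 122265 CPM in BH-WT. It was 63318 to 74283 CPM in BH-HF-KO against 105197 to 128594 CPM in BH-HF-WT, and did not overlap in any of the 3 settings. Alb made up most of the sum in every WT library. Alb alone was at 73030 to 97481 CPM in BH-WT and 13780 to 42167 CPM in BH-KO. It was at 71780 to 90687 CPM in BH-HF-WT and 29833 to 41313 CPM in BH-HF-KO. A separation of the list without Alb is therefore not shown. Of the macrophage list 9 of 12 fell in BH-KO, from 305 to 1491 CPM in BH-WT to 67.5 to 374 CPM. Of the endothelial list 3 of 8 fell in BH-KO, of the B cell list 1 of 6, and of the stellate and fibroblast list 2 of 10 in both KO groups. Of the erythroid list 1 of 5 fell in H-KO, of the neutrophil list 0 of 3 passed in either, and of the T and NK cell list 0 were tested. The counts of the B cell, erythroid, and stellate and fibroblast lists, and of the hepatocyte list in BH-KO, are near the shares of all genes. In BH-HF-KO no single marker passed, but neither did any other gene tested (0% of all genes in both directions). No marker of these lists was at 0 in every library, and their part in the levels of ribosomal protein genes was not tested.

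The KO effects of the 2 young settings were compared by an interaction contrast. One member passed, Rps27l, with 3.79% of all genes higher and 2.3% lower (edgeR, adjusted p under 0.05). At an unadjusted p under 0.05 the count was 10 higher and 0 lower, with 13.8% and 9.67% of all genes. The median difference over the members was 0.19, and over all genes 0.03. Apart from Rps27l, the KO effects of the 2 settings are thus not shown to differ for any member. The next smallest p values were those of Rpl22 (log2 difference 0.54 ± 0.17, adjusted p = 0.068, edgeR), Rpl35a (0.57 ± 0.20, adjusted p = 0.095) and Rpl23 (0.50 ± 0.19, adjusted p = 0.12). For the second interaction, the KO effect in BH-HF minus that in BH, 0 members passed in either direction, with 3.45% of all genes higher and 2.65% lower. At an unadjusted p under 0.05 1 was higher and 8 were lower, with 11.6% and 11.5% of all genes. DESeq2 gave 0 and 1, and limma-voom gave 0 and 0. The smallest p values in it were those of Rpl34 (0.74 ± 0.25, adjusted p = 0.088, edgeR), Rps26 (-0.51 ± 0.17, adjusted p = 0.090), Rps27l (-0.43 ± 0.16, adjusted p = 0.12) and Rps6 (-0.42 ± 0.17, adjusted p = 0.16). Without BH-KO replicate 1, 1 member was higher and 7 were lower in this contrast (12.2% and 8.92% of all genes).

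Rps27l (ENSMUSG00000036781, chr9:66946086-66949516, plus strand, in GENCODE M21 on GRCm38) is a paralog of Rps27 (chr3:90212522-90213651, minus strand) and a known p53 target. It was at 101, 92.7 and 92.4 CPM in H-WT and 78.6, 84.9 and 74.9 CPM in H-KO (log2 -0.26 ± 0.11, adjusted p = 0.081, edgeR). In BH-WT it was at 91.6, 87.1 and 92.8 CPM and in BH-KO at 131, 126 and 105 CPM (log2 0.41 ± 0.11, adjusted p = 0.014, edgeR). Each H-KO library lay below H-WT, and each BH-KO library lay above BH-WT. The difference between the KO effects was 0.68 ± 0.16 (adjusted p = 0.023, edgeR). It lay between 0.62 and 0.77 when any 1 library was left out, and the call was lost without H-KO replicate 1 or 3 or BH-WT replicate 2. The rise in BH-KO was lost without BH-WT replicate 2 or BH-KO replicate 2 (log2 0.38 in both). With plain library totals the difference was 0.49 and did not pass, and the H-KO value turned to 0.24.

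Cdkn1a, the cell cycle inhibitor p21 and another p53 target, was measured in the same fit. It was at 1.33, 1.23 and 0.839 CPM in H-WT and 27.3, 21.7 and 17.3 CPM in H-KO (log2 4.26 ± 0.42, adjusted p = 1.2e-05, edgeR). It was at 0.840, 1.22 and 0.957 CPM in BH-WT and 95.5, 135 and 145 CPM in BH-KO (log2 6.93 ± 0.43, adjusted p = 1.7e-07, edgeR). Cdkn1a rose in both settings, with a difference of 2.67 ± 0.68 between them (BH minus H, adjusted p = 0.033, edgeR). The call of the difference was lost with plain library totals, with libraries scaled to the members, without the filter, with limma-voom and with the replicate block. It was lost also without any 1 library of H-WT or BH-WT and without H-KO replicate 2 or 3, with differences of 2.52 to 2.85 when these were left out. In the BH-HF groups Cdkn1a was at 0.714 to 4.11 CPM, and Rps27l was at 86.3, 114 and 104 CPM in BH-HF-WT and 96.9, 94.9 and 109 CPM in BH-HF-KO.

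**Figure D4:**
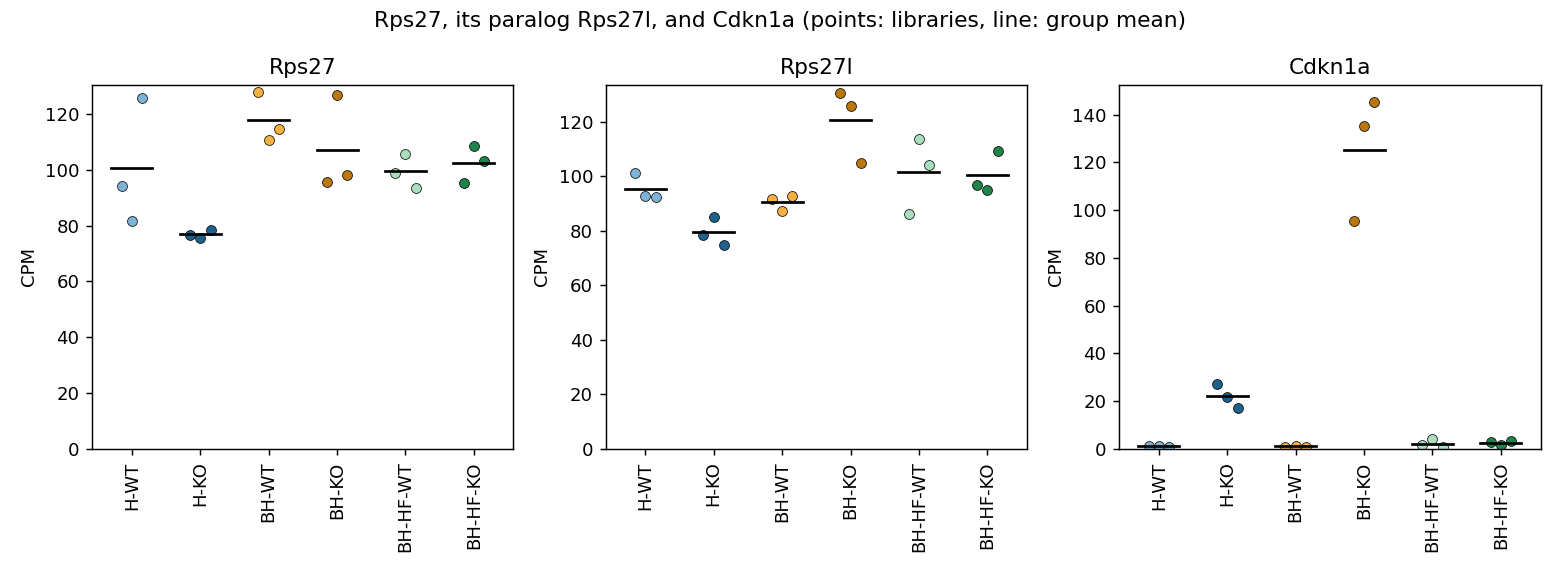
Levels in CPM of Rps27, Rps27l and Cdkn1a in 6 groups, with points for libraries and lines for group means. Rps27l is lower in H-KO (74.9 to 84.9) than in H-WT (92.4 to 101) and higher in BH-KO (105 to 131) than in BH-WT (87.1 to 92.8), while Cdkn1a is above WT in both.

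Rps27 itself was at 128, 111 and 115 CPM in BH-WT and 95.7, 127 and 98.3 CPM in BH-KO (log2 -0.14 ± 0.14, adjusted p = 0.49, edgeR). The aligned transcripts of Rps27 and Rps27l share 71.5% of 316 bases. Rpl22, a large subunit protein, rose in BH-KO (log2 0.35 ± 0.12, adjusted p = 0.039, edgeR). Its paralog Rpl22l1 was at 17.2, 12.4 and 16.1 CPM in BH-WT and 9.94, 38.8 and 22.9 CPM in BH-KO (log2 0.66, adjusted p = 0.17, edgeR). Rpl7l1, a paralog of Rpl7 that acts in ribosome assembly, was at 49.6 to 57.4 CPM in BH-WT and 56.4 to 67.0 CPM in BH-KO (log2 0.20, adjusted p = 0.21, edgeR). Rpl7 and the pairs Rpl36a and Rpl36al, Rpl6 and Rpl6l, and Rps4x and Rps4l passed in no comparison. Per length, the mean level over 18 libraries was 135 CPM per kb for Rpl36a and 1.41 CPM per kb for Rpl36al. It was 152 CPM per kb for Rpl6 and 1.14 CPM per kb for Rpl6l, which is annotated as a pseudogene. Rps4x, on the X chromosome, had 237 CPM per kb, and Rps4l, also annotated as a pseudogene, had 21.2 CPM per kb. Rpl3l, a muscle paralog of Rpl3, had at most 1.14 CPM in any library, and Rpl10l and Rpl39l, known from the testis, had no count.

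After high-fat diet no member passed. In BH-HF-KO against BH-HF-WT 0 rose and 0 fell, with 0% of all genes in both directions (edgeR), and DESeq2 and limma-voom gave 0 members too. At an unadjusted p under 0.05 the counts were 1 higher and 0 lower, with 1.67% and 1.83% of all genes. The median over the members was 0.11 and over all genes 0.00, with 66 of 84 members above 0. The groups did not overlap for 20 members above and 0 below, against 5.67% and 4.69% of all genes. Rpl34 (ENSMUSG00000062006, chr3:130726831-130730398, minus strand), a large subunit protein, had the smallest p. It was at 31.1, 34.7 and 31.1 CPM in BH-HF-WT and 49.2, 54.3 and 51.5 CPM in BH-HF-KO (log2 0.68 ± 0.18, unadjusted p = 0.0016, adjusted p = 1, edgeR). Next came Rpl13a (0.38), Rpl14 (0.18) and Rpl5 (0.24), each with an adjusted p of 1. Alb was at 71780 to 90687 CPM in BH-HF-WT and 29833 to 41313 CPM in BH-HF-KO.

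In BH-HF-WT against BH-WT, which differ in age and diet, 1 member fell and 0 rose, with 4.21% and 2.79% of all genes (edgeR). At an unadjusted p under 0.05 13 were lower and 1 was higher, with 14% and 10.3% of all genes. Both DESeq2 and limma-voom gave 1 lower and 0 higher. The median was -0.22 over the members and -0.01 over all genes, and 75 of 84 members were below 0. The groups did not overlap for 47 members below and 1 above, against 15.3% and 15.7% of all genes. The member that fell was Rpl34, at 55.6, 72.5 and 54.4 CPM in BH-WT and the values above in BH-HF-WT (log2 -0.91 ± 0.18, adjusted p = 0.0094, edgeR), and its call was lost without BH-WT replicate 2. Rpl27a, also of the large subunit, was at 151, 147 and 149 CPM in BH-WT and 118, 122 and 112 CPM in BH-HF-WT (log2 -0.34 ± 0.12, adjusted p = 0.094, edgeR). Rps24, of the small subunit, was at 213, 228 and 218 CPM and at 173, 176 and 158 CPM (log2 -0.38 ± 0.15, adjusted p = 0.13, edgeR). Rpl7l1 went the other way (log2 0.35 ± 0.12, adjusted p = 0.090, edgeR).

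Young controls of the 2 lines were compared as well. In BH-WT against H-WT 0 members rose and 0 fell, with 0.0573% and 0.107% of all genes (edgeR). At an unadjusted p under 0.05 14 were higher and 1 was lower, with 4.89% and 4.43% of all genes. DESeq2 gave 2 higher and limma-voom 0. The median was 0.17 over the members and 0.00 over all genes, and all 76 tested subunit genes had a value above 0. Groups were apart for 18 members above and 1 below, against 7.62% and 7.09% of all genes. Rpl29 and Rpl34, both of the large subunit, had the smallest p. Rpl29 was at 45.4, 38.8 and 16.4 CPM in H-WT and 86.0, 85.0 and 79.0 CPM in BH-WT (log2 1.31 ± 0.30, adjusted p = 0.13, edgeR). Its lowest value was in H-WT replicate 3, where most other members were high. Rpl34 was at 34.9, 29.9 and 42.9 CPM in H-WT, against 54.4 CPM or more in BH-WT (log2 0.76 ± 0.18, adjusted p = 0.13, edgeR). Rplp1 (log2 0.66, adjusted p = 0.33) and Rpl28 (0.34, adjusted p = 0.42), a stalk and a large subunit protein, came next. Rpl29 and Rpl34 were also lower in the H line's KO libraries (42.9 to 48.0 CPM for Rpl29 and 28.0 to 30.2 CPM for Rpl34) than in any BH-WT library.

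Members with roles outside the ribosome showed no common course. Of the MDM2 binders, Rpl5 and Rpl23 rose in BH-KO, Rpl23 from 234, 233 and 221 CPM to 343, 384 and 278 CPM (log2 0.55 ± 0.13, adjusted p = 0.0079, edgeR). Rpl11 was at 145, 131 and 133 CPM in BH-WT and 130, 185 and 149 CPM in BH-KO (log2 0.18, adjusted p = 0.32, edgeR). Rpl26, which binds p53 mRNA, passed with 0.35 ± 0.12 (adjusted p = 0.040, edgeR), and Rps27a, made as a fusion with ubiquitin, with 0.48 ± 0.15 (adjusted p = 0.025, edgeR). None of these 5 passed in H-KO.

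The stalk proteins recruit elongation factors. Rplp0, Rplp1 and Rplp2 had log2 changes of 0.13, 0.09 and 0.18 in BH-KO and passed in no comparison. Rpsa, the laminin receptor precursor, Rps3, which also acts in DNA repair, and Rps19, mutated in Diamond-Blackfan anaemia, had changes of 0.11, 0.12 and 0.13 in BH-KO and did not pass. The same held for Rps20 (0.23), Rps25 (0.12), Rpl10 (0.18) and Rpl41 (0.28). Rplp2 was at 83.0 to 102 CPM in BH-WT and at 56.8, 143 and 107 CPM in BH-KO. Rps14, which binds MDM2 and is lost in a form of myelodysplasia, was at 148 to 164 CPM and at 80.9, 278 and 224 CPM. For both, BH-KO replicate 1 lay below every BH-WT library and the other 2 above.

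Reads of ribosomal protein genes are hard to place, because the genome holds many processed copies of them. For each member, all runs of 50 bases of 1 annotated transcript were looked up in the transcripts of all other genes. The median member shared 56.6% of its runs with another gene, and 53 members shared over 50%. Rps27 shared 98.6%, mostly with the gene Rps27rt, while Rpl3l and Rpl39l shared none. The count table has 276 rows named as ribosomal protein pseudogenes, with 11743 counts in all libraries against 1700035 for the members. Level per kb and percent shared had a Spearman rho of 0.09 across 84 members, which are not independent. In BH-KO 8 of the 24 tested members with over 75% shared runs rose, and 10 of the 33 with under 50%, beside 14.4% of all genes. Whether the placing of reads affects these counts was not tested.

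The counts assigned to Rps3a1 and to its copies varied from library to library. Rps3a1 (chr3:86137940-86142702, minus strand) encodes a small subunit protein, and Rps3a2 and Rps3a3 are annotated as pseudogenes with 99.5% and 98.9% of aligned bases in common with it. The following stretch of their transcripts shows how little separates them, with capitals at the bases where the 3 differ.
Rps3a1: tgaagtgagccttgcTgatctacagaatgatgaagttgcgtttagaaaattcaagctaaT
Rps3a2: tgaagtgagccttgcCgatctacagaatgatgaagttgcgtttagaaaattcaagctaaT
Rps3a3: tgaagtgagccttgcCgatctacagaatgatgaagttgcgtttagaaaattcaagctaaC
A read of this length can therefore be told apart at 2 positions at most. Rps3a1 was at 166, 156 and 240 CPM in BH-WT, and Rps3a3 at 49.0, 39.1 and 1.91 CPM. In BH-HF-KO Rps3a1 was at 67.9, 228 and 133 CPM, and Rps3a3 at 69.8, 3.60 and 37.9 CPM. In both groups the library with the most Rps3a1 had the least Rps3a3. Their sum was at 215, 195 and 242 CPM in BH-WT and 138, 231 and 171 CPM in BH-HF-KO, so it varied too. Whether the placing of reads made these differences was not tested. Neither gene passed in any comparison.

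**Figure D5:**
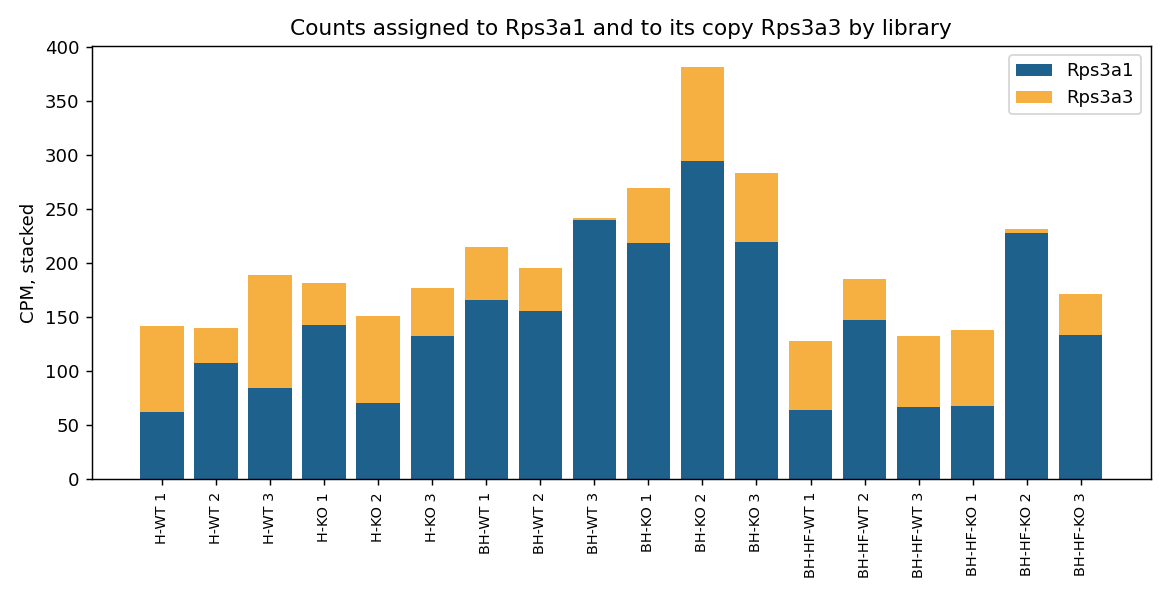
CPM of Rps3a1 (lower part of each bar) and of its annotated pseudogene Rps3a3 (upper part), stacked, in 18 libraries. Rps3a3 nearly vanishes in BH-WT replicate 3 (1.91) and BH-HF-KO replicate 2 (3.60), where Rps3a1 is the highest of its group.

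Some genes of core proteins had few counts. Rpl24, a large subunit protein, was at most at 0.949 CPM in any library and was not tested. Rpl13a, also of the large subunit, was at 4.75 to 13.4 CPM. The transcripts of Rpl24, Rpl13a and the paralog Rpl36al share 69.4%, 57.4% and 59.5% of their runs with an annotated gene (Gm28037, Gm45713 and AC099934.3) that lies over the same place on the same strand, and each of those genes had 0 counts in all libraries. What that overlap does to the counts was not tested, and the levels of these members are uncertain.

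The start regions of members were read from RefSeq (GRCm38.p6), which held 64 of the 89. Sequences from 250 bases before to 50 bases after the start were searched on both strands. The motif CCGGAAG, a core of ETS factor sites, was in 24 of the 64 (37.5%) and in 9.12% of the 27025 genes with such a sequence. TCTCGCGA was in 11 (17.2% against 1.08%), and CTCTTTCC in 10 (15.6% against 3.04%). The E-box CACGTG, which the Arntl protein and its partner bind, was in 5 (7.81%) and in 7.24% of all genes. The motifs overlap in some promoters, and Rps6, for instance, held CCGGAAG and TCTCGCGA. Windows from 90 bases before to 10 bases after the start are shown for some members that rose, with capitals at a searched motif. All the windows shown hold such a motif. Rpl5, Rps12 and Rpl22 also rose in BH-KO, and their longer sequences held none of the searched motifs. Whether a motif goes with a rise was not tested. The RefSeq start of Rps15a lies 891 bases from its GENCODE start.
Rpl12: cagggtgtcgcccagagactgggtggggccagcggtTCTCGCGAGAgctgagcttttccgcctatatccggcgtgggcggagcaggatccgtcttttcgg
Rps15a: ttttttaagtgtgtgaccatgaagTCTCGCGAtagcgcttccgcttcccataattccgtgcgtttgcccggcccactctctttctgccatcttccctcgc
Rps6: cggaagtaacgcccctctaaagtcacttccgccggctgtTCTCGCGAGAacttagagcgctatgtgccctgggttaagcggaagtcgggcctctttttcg
Rpl38: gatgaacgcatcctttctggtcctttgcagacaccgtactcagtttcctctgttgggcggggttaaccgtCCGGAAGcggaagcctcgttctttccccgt
Rpl23: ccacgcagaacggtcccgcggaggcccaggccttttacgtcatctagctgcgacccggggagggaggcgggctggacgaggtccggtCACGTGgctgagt
They lie at chr2:32961622-32961721 (plus strand), chr7:118116138-118116237 (minus strand), chr4:86857358-86857457 (minus strand), chr11:114668490-114668589 (plus strand) and chr11:97782430-97782529 (minus strand). In the 10 capital letters of their windows, Rpl12 and Rps6 hold TCTCGCGA on both strands, in overlap. A match is a description of these letters, not of a bound site.

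Other lists are set beside the shares of all genes given above, 15.8% higher and 19.1% lower in H-KO, and 14.4% and 14.2% in BH-KO. Of 80 ribosome assembly factors tested, 30 rose and 4 fell in H-KO, and 35 rose and 1 fell in BH-KO, so that most did not pass, with medians of 0.32 and 0.36 (all genes 0.00 and 0.03). Utp14a (0.99), Rrp1 (0.58), both nucleolar processing factors, and Rcl1 (-1.16), a cyclase-like factor, led in H-KO. In BH-KO Rcl1 (-1.50), Nop58 (1.17), a core snoRNP protein, and Gnl3l (0.80), a nucleolar GTPase, led. The count of risers was 67 and 59 with plain library totals, beside 42.9% and 31.1% of all genes. It was 10 in both with libraries scaled to the members, beside 8.83% and 4.71%. In BH-HF-KO 0 of the 80 passed, as for all lists here and for all genes tested.

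Mitochondrial ribosomal proteins form the separate ribosome of mitochondria. Of 77 tested, 2 rose and 18 fell in H-KO (median -0.12), beside 15.8% and 19.1% of all genes. In BH-KO 13 rose and 3 fell (median 0.10), beside 14.4% and 14.2%. The difference between the settings was tested only gene by gene. The counts in H-KO were 29 and 3 with plain library totals, beside 42.9% and 9.27% of all genes. The smallest p values in H-KO were those of Mrpl14 (-1.03), Mrps5 (-0.52) and Mrpl12 (-1.10), and in BH-KO those of Mrps10 (0.66), Mrpl50 (0.69) and Mrpl32 (0.46). In the interaction of the young settings 5 were higher and 0 lower, beside 3.79% and 2.3% of all genes. They were led by Mrps31 (0.65), Mrpl18 (1.04) and Mrpl9 (0.91).

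Of 34 initiation factors, 9 rose and 2 fell in H-KO, and 9 rose and 2 fell in BH-KO. Eif4a1, the helicase of the cap-binding complex, rose in both (log2 0.72 and 0.60). Of 36 genes of mTORC1 and translation control, 5 rose and 9 fell in H-KO, and the counts were the same in BH-KO. The shares of all genes were 15.8% and 19.1% in H-KO, which these counts are near, and 14.4% and 14.2% in BH-KO. Eif4ebp2, a repressor of cap-dependent translation, fell in H-KO (-1.10) and in BH-KO (-0.77). Its paralog Eif4ebp1 fell in BH-KO (-1.12), and this effect was lower than that in H (difference -0.93, adjusted p = 0.024, edgeR). With plain library totals the split of this list in H-KO was 18 higher and 1 lower, beside 42.9% and 9.27% of all genes. Its direction thus depends on the scaling, as that of all genes does.

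Of 21 genes of RNA polymerase I transcription, 5 rose and 2 fell in H-KO and 3 rose in BH-KO, with Polr1a, the largest subunit, at 0.92 and 0.48. Of 8 tested snoRNA host RNAs, which share the pyrimidine start of ribosomal protein mRNAs, Snhg1 and Snhg5 rose and Snhg8 fell in H-KO, and Gas5 and Snhg5 rose in BH-KO. In BH-HF-WT against BH-WT 4 of the 8 fell, beside 4.21% of all genes, among them Zfas1 (-1.33), Epb41l4aos (-1.03) and Snhg1 (-0.93). Of 15 genes listed as elongation factors or pyrimidine-start mRNAs, 1 rose and 2 fell in H-KO, and 4 rose and 1 fell in BH-KO. The risers in BH-KO included Eef1b2 (0.64), Btf3 (0.57) and Nap1l1 (0.68). Imp3 fell in both (-0.65 in H-KO, -0.53 in BH-KO), and whether its mRNA has a pyrimidine start was not tested. Of 25 named pseudogenes tested, 1 rose in H-KO and 4 rose in BH-KO.

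Of the partner genes Fau and Rack1, Fau passed in 1 comparison and Rack1 in none. Fau fell in H-KO, from 108, 104 and 171 CPM to 92.7, 92.6 and 101 CPM (log2 -0.43 ± 0.16, adjusted p = 0.049, edgeR), with H-WT replicate 3 as the highest library. With plain library totals its change was 0.08. Rack1 was at 202, 178 and 213 CPM in H-WT and 258, 238 and 258 CPM in H-KO (log2 0.35 ± 0.15, adjusted p = 0.079, edgeR). The call of Fau was lost without H-WT replicate 3 (log2 -0.16) and without any H-KO library.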

How the data were processed

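Whole-number gene counts were deposited by the authors in 1 table of 52636 genes and 18 libraries. Reads were aligned with STAR 2.6 to mm10, per the submitters' processing notes; the sources used here name no read counter, strand setting, treatment of reads with several matches or kit. Groups and replicates come from the labels. Genes with low counts were removed (filterByExpr, minimum count 10), leaving 13958. Counts were fitted with edgeR 4.0.16 in R 4.3.3 (TMM factors, robust quasi-likelihood test, 1 mean per group over all 18 libraries, 12 residual degrees of freedom, Benjamini-Hochberg adjustment over all genes), in 7 two-sided comparisons. Levels are CPM of the TMM-scaled library size. The code was tested on simulated data. Alternatives were other scalings, no filter, DESeq2 1.42.0, limma-voom (limma 3.58.1), the compared groups alone, a replicate block, a stricter threshold and each library left out. The biological replicates are those named in the labels, and counting error alone was exceeded between them. Named genes are the label check, paralogs, members with a known role of their own, the up to 8 largest rises and falls per comparison (the 4 smallest p values where fewer than 4 passed), the partners Fau and Rack1, up to 3 genes of each other list by smallest p, and Cdkn1a. Others, such as Rps18, Rpl24 and Rps3a1, were named after their values were seen. Some named genes are not reported here and are not drawn in the plot of levels by gene. Members and lists were chosen with earlier results of these data known.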

Additional observations from a re-analysis of the deposited data

Results flagged for a closer look

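Rps27l was the one member whose KO effect differed between the young settings in a test of the difference itself. The KO effect in BH minus that in H was 0.68 ± 0.16 on the log2 scale (adjusted p = 0.023, edgeR), with all 3 H-KO libraries below H-WT and all 3 libraries labelled BH-KO above BH-WT. The difference was 0.49 with plain library totals and 0.56 with libraries scaled to the members, and passed under neither.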

How the results depend on the processing

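Counts of members that passed are given as higher and lower. With upper-quartile factors they were 19 and 0 in H-KO, and 1 was lower in the interaction of BH-HF with BH. With plain library totals they were 61 and 0 in H-KO, 58 higher in BH-KO, 0 higher in the interaction of BH with H, and 2 lower in that of BH-HF with BH; the medians were 0.62, 0.69, -0.56 (BH-HF with BH) and -0.28 (BH-HF-WT against BH-WT), and the H-KO changes of Rpl35a (0.067), Rps27 (0.12), Fau (0.081), Rps3 (0.46) and Rps25 (0.46) had the opposite sign. Scaled to the members, 1 was higher in H-KO, 2 and 3 passed in BH-KO, 0 in the interaction of BH with H and 1 was higher in that of BH-HF with BH. The medians, which this scaling centres by construction, were then 0.040 in BH-KO, 0.022 in BH-HF-KO, 0.0072 in the interaction of BH-HF with BH, -0.037 in BH-WT against H-WT and -0.013 in BH-HF-WT against BH-WT. Without the filter 1 and 1 passed in H-KO and 0 in the interaction of BH with H. DESeq2 gave 2 higher in that interaction, 1 lower in the other and 2 higher in BH-WT against H-WT, and limma-voom gave 1 lower in H-KO. With the compared groups alone 7 and 1 passed in H-KO, 2 in BH-KO and 4 lower in BH-HF-WT against BH-WT. At an adjusted p under 0.01, 0 and 0 passed in H-KO, 7 in BH-KO and 0 in the interaction of BH with H. Leaving out BH-KO replicate 1 and H-WT replicate 3 together, chosen after seeing the data, gave 29 and 1 in H-KO, 50 in BH-KO, 1 and 18 in the interaction of BH-HF with BH, 2 higher in BH-WT against H-WT, and 1 and 6 in BH-HF-WT against BH-WT. The cause of these shifts was not tested. Where a count in this section has no share of all genes under the same setting, it is not read as a result about the members.

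Same-numbered libraries of compared groups had correlations of -0.20 to 0.04, so the numbers do not pair them. With the replicate block, 1 member was lower in H-KO and 19 were higher in BH-KO.

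With each library left out in turn, counts ran from 0 to 11 higher and 0 to 2 lower in H-KO, 7 to 40 higher in BH-KO, 0 to 4 higher in the interaction of BH with H, 0 to 1 higher and 0 to 7 lower in that of BH-HF with BH, and 0 to 1 lower in BH-HF-WT against BH-WT. Medians ran from 0.15 to 0.41 in BH-KO and from -0.30 to -0.032 in the interaction of BH-HF with BH. Where 2 libraries remain in a group, the fit pools the spread over groups.

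Without albumin and mitochondrially encoded genes in the total, the mean summed share was 1.13% in H-WT, 1.59% in H-KO, 1.25% in BH-WT, 1.79% in BH-KO, 1.03% in BH-HF-WT and 1.07% in BH-HF-KO. Relative to the TMM-scaled library it was 1.01% in H-WT, 1.10% in H-KO, 1.16% in BH-WT, 1.42% in BH-KO, 1.01% in BH-HF-WT and 1.08% in BH-HF-KO. For single genes, 2792 results kept their side of the threshold, 140 lost a call, 87 gained one and 5 changed sign with a call on either side. Values that passed neither way, such as Rps27l in H-KO, can change sign among the 2792.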
